A study of Homo sapiens with 4 samples.

Results

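The genes described here are 43 genes of cell adhesion and the actin skeleton: integrins, the adaptors and kinases of focal adhesions, and regulators of actin. They were taken by gene symbol, as every array probe annotated to one of the 43 genes. Of these, 39 genes had at least 1 such probe, with 72 probes between them on an array of 24526 probes. On the arrays, 35 genes had a probe with a detection p-value under 0.01 on at least 1 array and were tested, and each is represented by its tested probe of highest mean signal. ITGB3, ITGB6, VASP and MYL9 had probes but no signal above the negative control beads on any array, so no fold is given for them. No probe was named for FLNA, CRK, RDX or TPM3, which were not analysed here.

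Messenger RNA was profiled in A549/146b and A549/vec cells, which are stable, puromycin-selected populations of the A549 human lung adenocarcinoma cell-line and not single clones. A549/146b cells carry a lentiviral vector in which the constitutive cytomegalovirus promoter drives a red fluorescent protein transcript with the pre-miR-146b hairpin in its untranslated region, and A549/vec cells carry the same vector without the hairpin. Both cell-lines thus share the vector backbone, the fluorescent protein and growth in 2 µg/ml puromycin. They were transduced with different viruses, so that their sites of viral integration are not shared by design. Both were grown side by side on 2 occasions and profiled once on each, which gave 2 arrays for each cell-line. In both cell-lines, per the labels, the cells were detached with trypsin and pelleted before RNA was isolated. The level of MIR146B itself was not analysed here. Of 10 markers of epithelial and A549 cells, 9 were detected on all arrays, among them KRT7, KRT8, KRT18, KRT19 and CDH1 (E-cadherin), and EPCAM was not. None of 8 endothelial markers was detected, and among fibroblast markers COL1A1, COL1A2 and COL3A1 were undetected while PDGFRA, ACTA2 and TWIST1 were detected. Marker genes of surfactant-producing alveolar cells were mostly undetected, 3 of 11 being detected, as were 2 of 8 smooth muscle, 3 of 9 leukocyte and 1 of 6 embryonic kidney markers, and no marker was called.

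Integrins are receptors made of an alpha and a beta subunit that bind matrix proteins outside the cell. Inside the cell, talin and kindlin bind the beta tail, and vinculin, alpha-actinin and the kinase-parvin-PINCH complex tie the receptor to actin filaments. Focal adhesion kinase and SRC signal from these sites to the actin skeleton. In lung epithelial and carcinoma cells this machinery carries attachment, spreading and migration, of which the study assayed migration.

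The hairpin that distinguishes the cell-lines is shown because it is the designed difference between the groups. In the RefSeq annotation of GRCh38.p14, MIR146B lies on chromosome 10, plus strand, at chr10:102436512-102436584. The hairpin is printed with both mature arms in capitals, and the mature microRNAs, hsa-miR-146b-5p at chr10:102436520-102436542 and hsa-miR-146b-3p at chr10:102436557-102436578, with the seed (bases 2 to 8) in capitals.
MIR146B hairpin: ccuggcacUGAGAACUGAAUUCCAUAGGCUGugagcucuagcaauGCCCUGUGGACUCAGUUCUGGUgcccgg
hsa-miR-146b-5p: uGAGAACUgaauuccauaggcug
hsa-miR-146b-3p: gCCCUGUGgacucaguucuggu
The arms do not share a seed. Matches to these seeds in the transcripts of the adhesion genes were not searched here.

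None of the 35 adhesion and actin genes passed the test, in either direction. In the paired limma fit with Benjamini-Hochberg adjustment over all 10559 tested probes, 98 probes (0.928%) passed an adjusted p of 0.05, of which 46 (0.436%) were higher and 52 (0.492%) lower in A549/146b. At an unadjusted p under 0.05 the count was 4 of 35 genes (11.4%), namely ITGAV, VCL and PARVA with positive and SRC with negative differences, against 12.4% of all 8290 tested genes, each likewise taken by its brightest tested probe. Both A549/146b arrays lay above, or both below, both A549/vec arrays for 17 of the 35 genes (48.6%), against 44.5% of all tested genes. The A549/146b arrays were the higher for 10 of them and the lower for 7, where 23.7% and 20.7% of all tested genes were. The log2 fold change, A549/146b minus A549/vec, had a median of 0.03 over the 35 genes and of 0.01 over all tested genes, and the median size of the change was 0.12 in both sets. Values spanned -0.37 for SRC to 0.50 for ITGAV, with a standard error of 0.143 to 0.144 on the log2 scale. In these bulk RNA preparations, a change in the share of cells that express a gene and a change in its RNA per cell cannot be told apart. Of the 35 genes, 21 (60.0%) had a log2 fold change above 0, as did 52.1% of tested genes.

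**Figure D1:**
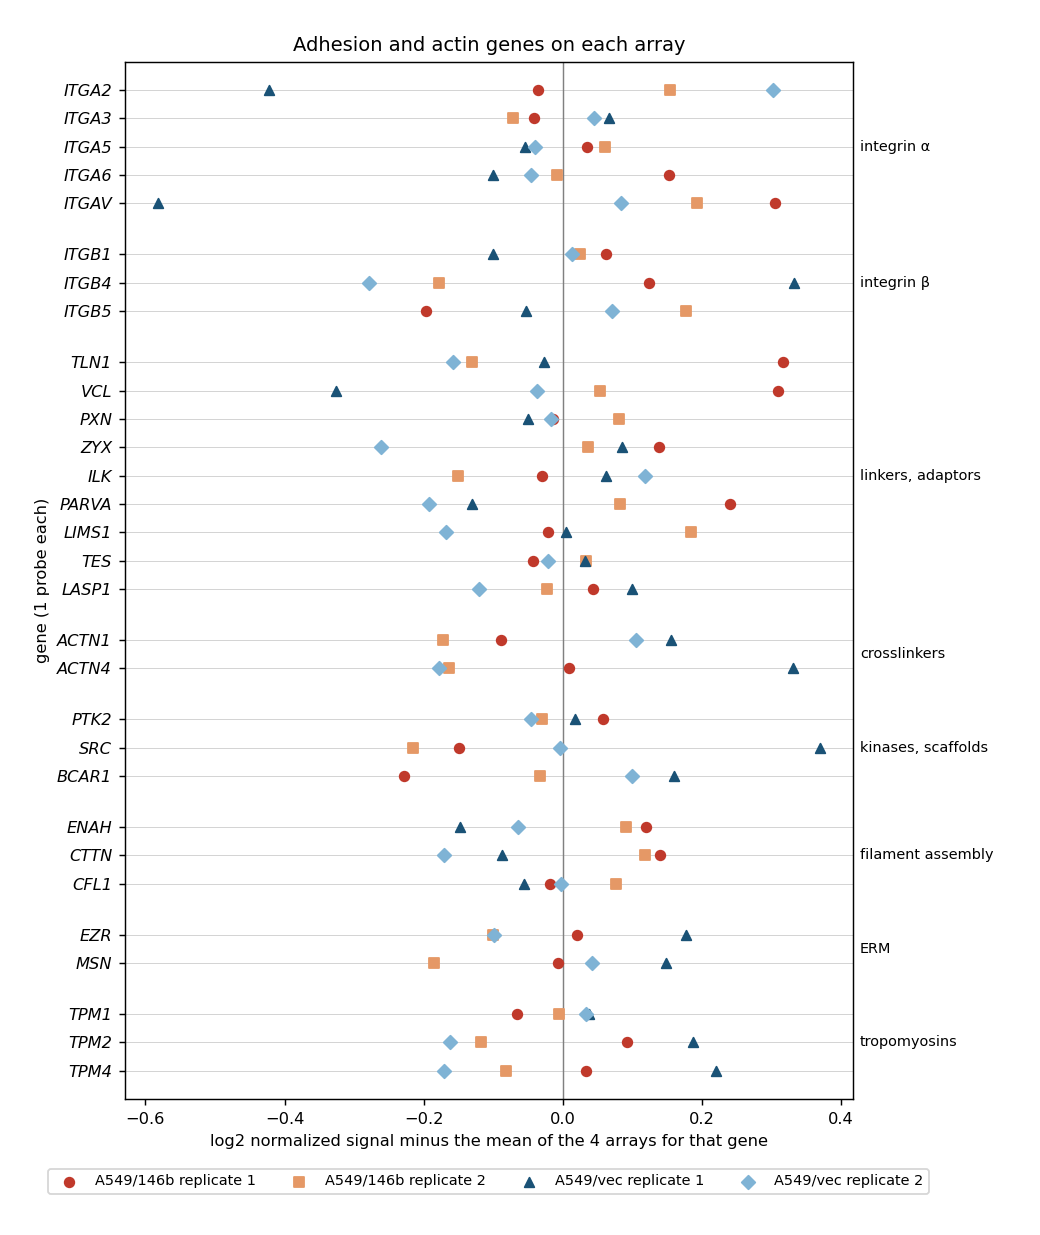
Normalized signal of 30 tested genes on each of the 4 arrays, as log2 minus the mean of the 4 arrays for that gene (horizontal axis), with genes in rows by role; ERM marks the ezrin, radixin and moesin family. Red and orange points are A549/146b arrays and blue points A549/vec arrays; A549/vec replicate 1 (dark blue triangle) is the lowest or highest point in 21 of 30 rows.

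The integrin alpha subunits held the largest positive difference of the set. ITGAV encodes the alpha V subunit, which pairs with several beta subunits to bind vitronectin and other proteins with an RGD motif. Its normalized signal was 1057.5 and 978.9 on the A549/146b arrays, against 571.8 and 907.2 on the A549/vec arrays. Both A549/146b arrays were the higher, but the second A549/vec array lay much nearer to them than to the first. The log2 fold change was 0.50 (1.41-fold, 95% interval 1.16 to 1.72), with an adjusted p of 0.0531 in limma, just outside the threshold. Occasion 1 gave a difference of 0.89 and occasion 2 one of 0.11. Leaving out A549/vec replicate 1 gave a log2 fold change of 0.17, and leaving out A549/vec replicate 2 gave 0.83 with an adjusted p of 3.4e-05, so that the value moved with the control array left out.

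ITGA6, the alpha 6 subunit of laminin receptors, had signals of 123.5 and 110.5 on the A549/146b arrays, against 103.7 and 107.7 on the A549/vec arrays. It was detected on only 1 array of each cell-line, close to the background signal, and its log2 fold change of 0.14 did not pass (adjusted p = 0.743, limma). ITGA2, the alpha subunit of a collagen receptor, fell outside the rule for named genes and is given because it became a call when 1 control array was left out. Its signals were 412.6 and 470.5 on the A549/146b arrays, against 315.3 and 521.4 on the A549/vec arrays. The A549/vec arrays enclosed the A549/146b arrays, and the difference was 0.39 on occasion 1 and -0.15 on occasion 2. ITGA5, which makes the fibronectin receptor with ITGB1, had a log2 fold change of 0.09, and ITGA3, a laminin receptor subunit, of -0.11. Both had nearly the same difference on the 2 occasions, 0.09 and 0.10 for ITGA5 and -0.11 and -0.12 for ITGA3, and neither passed (adjusted p = 0.852 and 0.815, limma). For all 5 alpha subunits A549/vec replicate 1 was the lowest or the highest of the 4 arrays.

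The beta subunits that can pair with alpha V did not show a difference of that size. ITGB1, the common partner of most alpha subunits, had signals of 15494.2 and 15088.6 on the A549/146b arrays, against 13835.1 and 14978.2 on the A549/vec arrays. The A549/146b arrays were the higher by little, with a log2 fold change of 0.09 (adjusted p = 0.868, limma; 95% interval -0.19 to 0.37). ITGB5, another partner of alpha V, had a log2 fold change of -0.02, with -0.14 on occasion 1 and 0.11 on occasion 2. ITGB3 and ITGB6, which also join alpha V, were not above background on any array. ITGB4, which pairs with alpha 6 in hemidesmosomes, had signals of 226.4 and 183.7 on the A549/146b arrays, against 261.6 and 171.4 on the A549/vec arrays. Its arrays overlapped, the first occasion being the brighter in both cell-lines, and its log2 fold change was -0.05 (adjusted p = 0.928, limma).

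Among the 9 linkers and adaptors of focal adhesions, 7 (77.8%) had positive differences, against 52.1% of all tested genes, and none passed. The 7 include PXN at 0.07 and LASP1 at 0.02, both smaller than their standard error of 0.143. VCL encodes vinculin, which binds talin under tension and recruits actin. Its signals were 7667.6 and 6416.1 on the A549/146b arrays, against 4930.8 and 6027.7 on the A549/vec arrays. As for ITGAV, the arrays did not overlap. The A549/vec array of occasion 1 stood below the rest, and the A549/146b array of occasion 1 stood above them. The log2 fold change was 0.36 (1.29-fold, 95% interval 1.06 to 1.56; adjusted p = 0.238, limma), with 0.64 on occasion 1 and 0.09 on occasion 2. Leaving out A549/vec replicate 1 gave 0.22, and leaving out A549/146b replicate 1 gave 0.23. TLN1, talin 1, which activates integrins by binding the beta tail, had signals of 709.9 and 520.5 on the A549/146b arrays, against 559.3 and 510.7 on the A549/vec arrays. Here the A549/146b array of occasion 1 was the one apart, the cell-lines overlapped, and the log2 fold change was 0.19 (adjusted p = 0.645, limma).

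The kinase-parvin-PINCH complex binds integrin tails as a unit of ILK, a parvin and a PINCH protein, and its 3 genes differed in direction. PARVA, alpha-parvin, had signals of 238.5 and 213.6 on the A549/146b arrays, against 184.4 and 176.6 on the A549/vec arrays. These arrays were well apart and gave similar differences on both occasions, 0.37 and 0.27, for a log2 fold change of 0.32 (1.25-fold, 95% interval 1.03 to 1.52; adjusted p = 0.319, limma). ILK, integrin-linked kinase, had signals of 2078.1 and 1912.3 on the A549/146b arrays, against 2215.4 and 2303.6 on the A549/vec arrays. Both A549/146b arrays were the lower, with a log2 fold change of -0.18 (adjusted p = 0.662, limma). LIMS1, PINCH-1, had signals of 276.4 and 318.9 on the A549/146b arrays, against 281.4 and 249.7 on the A549/vec arrays. The cell-lines overlapped, and the difference was -0.03 on occasion 1 and 0.35 on occasion 2, whereas that of ITGAV was the larger on occasion 1.

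ZYX encodes zyxin, a LIM protein of mature adhesions and stress fibres. Its signals were 1280.1 and 1191.6 on the A549/146b arrays, against 1233.7 and 969.9 on the A549/vec arrays, and they overlapped. The log2 fold change was 0.18 (adjusted p = 0.675, limma). The remaining adaptors, PXN (paxillin), LASP1 and TES, had log2 fold changes of 0.07, 0.02 and -0.01.

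SRC, its scaffold BCAR1 and the actin crosslinker ACTN1 had the 3 largest negative differences. SRC is the tyrosine kinase that phosphorylates focal adhesion proteins. Its signals were 1167.1 and 1114.6 on the A549/146b arrays, against 1672.5 and 1290.4 on the A549/vec arrays. Both A549/146b arrays were the lower, with differences of -0.52 on occasion 1 and -0.21 on occasion 2, for a log2 fold change of -0.37 (0.78-fold, 95% interval 0.64 to 0.94; adjusted p = 0.233, limma). Leaving out A549/vec replicate 1 gave -0.18. BCAR1, the SRC substrate and scaffold p130Cas, had signals of 280.7 and 321.4 on the A549/146b arrays, against 367.3 and 352.2 on the A549/vec arrays. The arrays did not overlap, with a log2 fold change of -0.26 (adjusted p = 0.456, limma). PTK2, focal adhesion kinase, which binds both SRC and BCAR1, had a log2 fold change of 0.03 (95% interval -0.25 to 0.31).

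ACTN1 and ACTN4 encode the alpha-actinins that crosslink actin filaments and join them to integrins. ACTN1 had signals of 4942.6 and 4662.8 on the A549/146b arrays, against 5852.5 and 5652.7 on the A549/vec arrays. Replicates lay close together and the cell-lines apart, with differences of -0.24 and -0.28 on the 2 occasions and a log2 fold change of -0.26 (adjusted p = 0.454, limma). ACTN4 had signals of 2382.9 and 2113.2 on the A549/146b arrays, against 2977.8 and 2092.9 on the A549/vec arrays. The A549/vec array of occasion 1 stood above the rest, and the difference was -0.32 on occasion 1 and 0.01 on occasion 2.

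**Figure D2:**
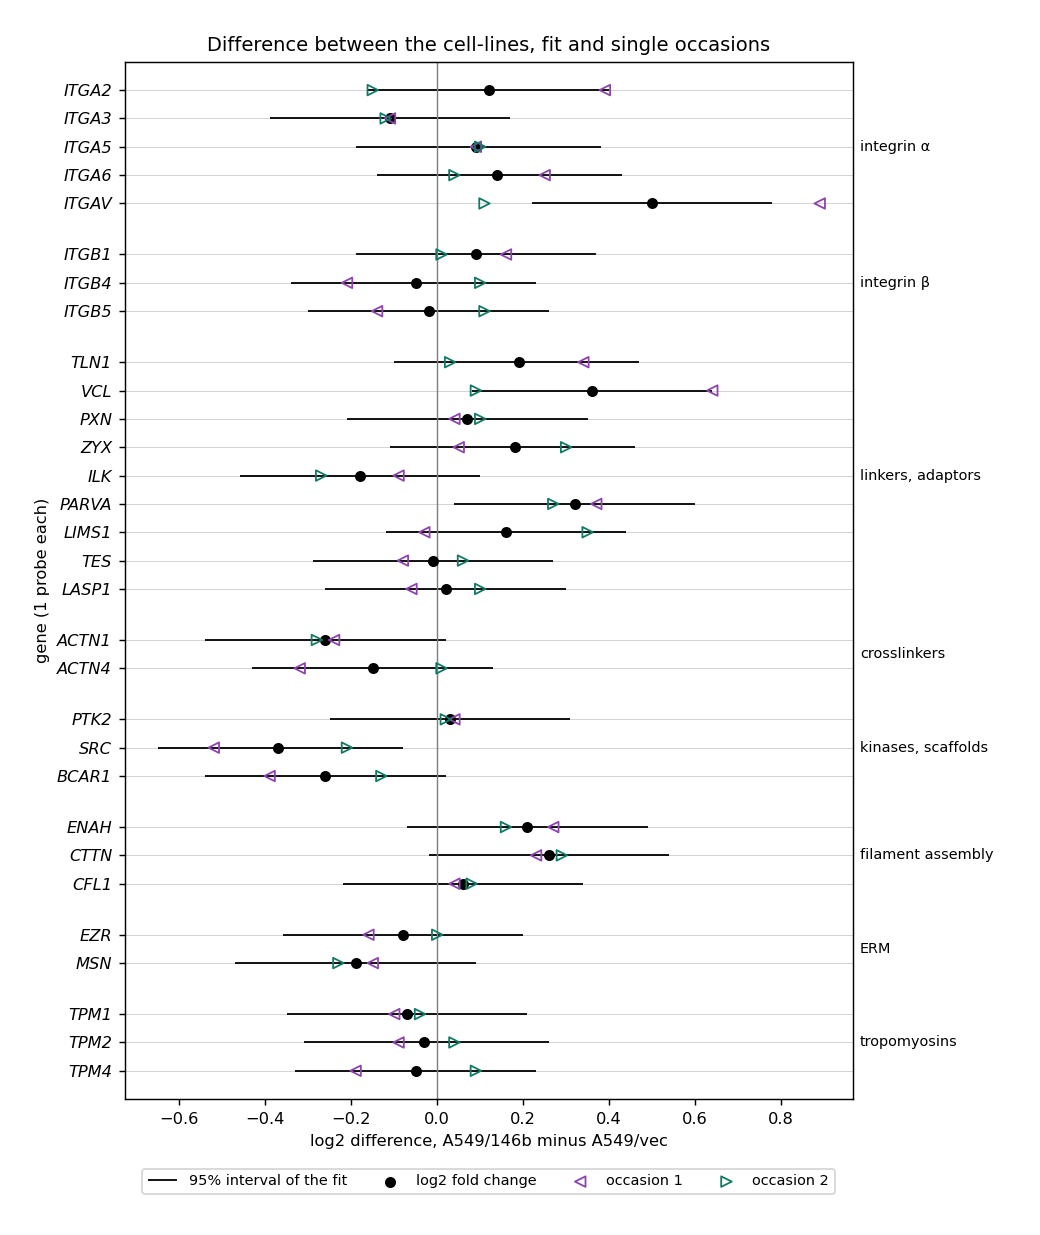
Log2 difference, A549/146b minus A549/vec (horizontal axis), for the same 30 tested genes in rows by role, with filled points for the limma fit, lines for its 95% interval and open triangles for each occasion. ITGAV, VCL and PARVA have intervals above 0 and SRC below 0 before adjustment; the triangles of ITGAV and VCL lie far apart, whereas those of PARVA and ACTN1 lie close together.

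The genes for filament assembly and severing had positive differences. CTTN, cortactin, which stabilizes branched actin at the cell edge, had signals of 2026.2 and 1996.2 on the A549/146b arrays, against 1731.4 and 1634.4 on the A549/vec arrays. Replicates were close and the cell-lines apart for this probe, with a log2 fold change of 0.26 (adjusted p = 0.463, limma). ENAH, the Mena protein that lengthens filaments, had signals of 131.8 and 129.2 on the A549/146b arrays, against 109.4 and 116.0 on the A549/vec arrays, and was detected on both A549/146b arrays and on 1 A549/vec array. The A549/146b arrays were the higher, with a log2 fold change of 0.21 (adjusted p = 0.581, limma) at signals near background. CFL1, cofilin, which severs filaments, had a log2 fold change of 0.06.

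Ezrin and moesin, which tie the membrane to cortical actin, had negative differences. MSN had signals of 1642.2 and 1451.7 on the A549/146b arrays, against 1828.1 and 1699.1 on the A549/vec arrays. The A549/146b arrays were the lower, with a log2 fold change of -0.19 (adjusted p = 0.632, limma). EZR had signals of 7091.2 and 6517.9 on the A549/146b arrays, against 7904.2 and 6529.3 on the A549/vec arrays. Those of occasion 2 were nearly equal, and the log2 fold change was -0.08 (adjusted p = 0.881, limma).

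Tropomyosins, which coat actin filaments and set what can bind them, had log2 fold changes between -0.07 and -0.03 for the brightest probes of the 3 tested genes. TPM1 had signals of 5964.5 and 6216.6 on the A549/146b arrays, against 6407.5 and 6386.8 on the A549/vec arrays, so that the A549/146b arrays were the lower by little. TPM4 had signals of 346.9 and 320.3 on the A549/146b arrays, against 394.9 and 301.2 on the A549/vec arrays, which overlapped. TPM2 had a log2 fold change of -0.03, and its other tested probe gave -0.24. None of the 3 genes passed (adjusted p = 0.897, 0.973 and 0.936 for TPM1, TPM2 and TPM4, limma).

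The 2 occasions did not weigh alike. The SD of the differences across the 35 genes was 0.29 on occasion 1 and 0.15 on occasion 2, and across all tested genes 0.29 and 0.16. The A549/vec array of occasion 1 was the lowest or the highest of the 4 for 25 of the 35 genes (71.4%), against 68.6% of tested genes. Over tested probes its correlation with the other arrays was 0.9845 to 0.9909, while the others correlated at 0.9923 to 0.9951. The part of this array in the values above was not tested beyond leaving it out. Without A549/vec replicate 1 no adhesion gene was called, and without A549/vec replicate 2, which leaves it as the only control, limma called 4, with ITGAV, VCL and ITGA2 higher and SRC lower, of 868 probes called in all (8.22%). Differences had the same direction on both occasions for 23 of the 35 genes (65.7%), against 58.5% of all tested genes. Mean signals before normalization were 393.7 to 480.1 on the 4 arrays, 39.2% to 42.1% of probes were detected, and 33 to 35 of the 35 genes were detected on each array.

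**Figure D3:**
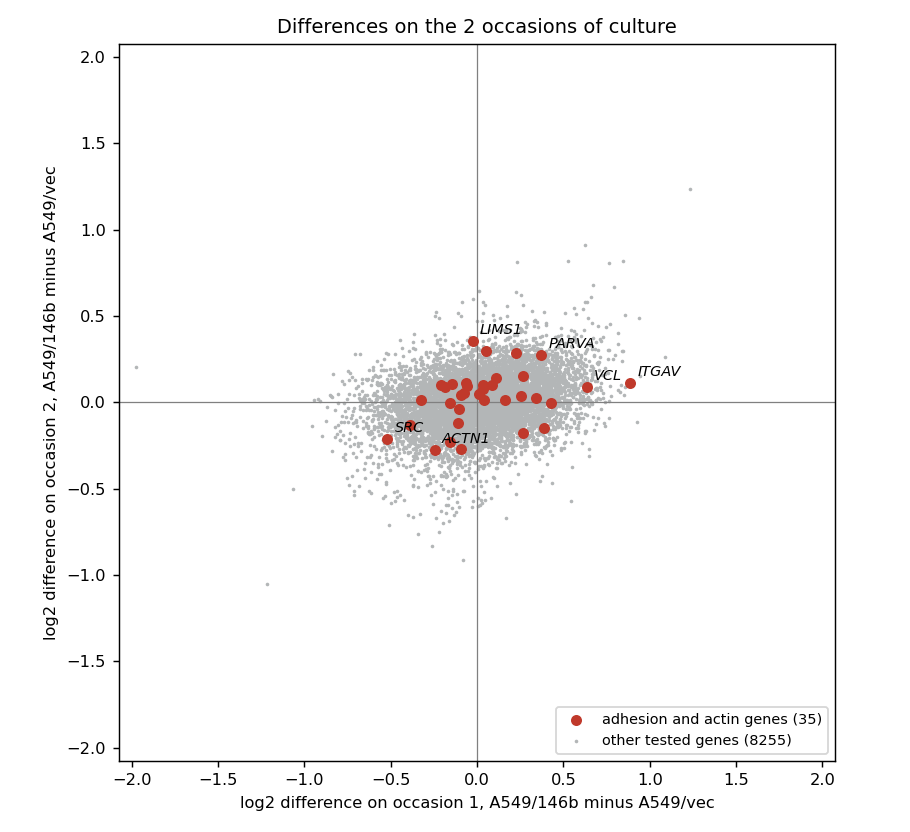
Log2 difference, A549/146b minus A549/vec, on occasion 1 (horizontal axis) and on occasion 2 (vertical axis) for each tested gene, with the 35 adhesion and actin genes in red over the other 8255 tested genes in grey. The red points lie within the grey cloud, which is wider along occasion 1 (SD 0.29) than along occasion 2 (SD 0.16); ITGAV lies near its right edge.

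Several genes were measured by more than 1 tested probe, and these often differed. Of 12 such genes, 4 had probes with log2 fold changes of the same sign and 8 of opposite signs. Some of the latter had values close to 0, with gaps between probes of 0.06 for ITGB5 and 0.08 for PTK2. CTTN had the widest gap, 0.57: beside the value of 0.26 above, another probe gave -0.31 and the last -0.09. The probe at -0.31 had signals of 217.7 and 241.4 on the A549/146b arrays, against 317.3 and 254.8 on the A549/vec arrays, the opposite order to the brightest probe (unadjusted p = 0.0302, adjusted p = 0.343, limma). Averaged over its probes CTTN had a log2 fold change of -0.05, so that its direction depended on the probe. ITGB1 likewise had probes at 0.09, 0.09 and -0.30. The probe at -0.30 had signals of 5151.8 and 5548.3 on the A549/146b arrays, against 6793.4 and 6335.3 on the A549/vec arrays, which did not overlap (adjusted p = 0.373, limma), and the average over ITGB1 probes was -0.04. The second VCL probe gave a log2 fold change of 0.02, with signals of 537.8 and 498.8 on the A549/146b arrays, against 570.5 and 456.0 on the A549/vec arrays, so that the difference of the brighter VCL probe was not seen with it. ZYX gave 0.18 and -0.13, and TPM1 gave -0.07, -0.04 and 0.16. ILK gave -0.18 and 0.0, and TPM2 gave -0.03 and -0.24, the latter from a probe whose arrays did not overlap. ITGAV, SRC, PARVA, BCAR1 and ACTN1 each had a single tested probe.

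**Figure D4:**
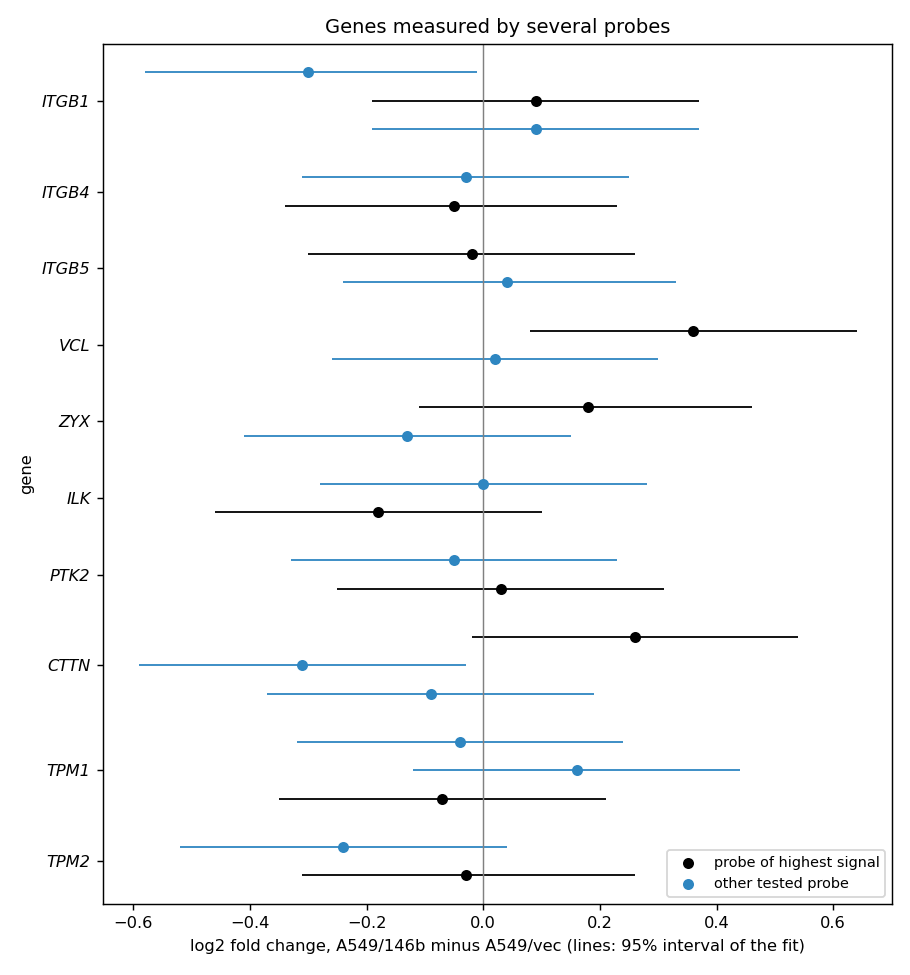
Log2 fold change, A549/146b minus A549/vec (horizontal axis), of each tested probe of 10 genes with more than 1, with lines for the 95% interval of the limma fit; black marks the probe of highest signal and blue the others. The probes of CTTN span -0.31 to 0.26 and those of ITGB1 -0.30 to 0.09, while those of ITGB4 nearly coincide.

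Other genes of the same pathways were read from the same fit. Of 12 matrix ligands tested, 1 was called, higher in A549/146b, where 0.436% of all tested probes were called higher. COL4A1, a collagen IV chain of basement membranes and a ligand of integrins, had signals of 726.8 and 795.3 on the A549/146b arrays, against 476.0 and 547.1 on the A549/vec arrays. It was higher on both occasions, with a log2 fold change of 0.58 (1.49-fold, 95% interval 1.23 to 1.81; adjusted p = 0.0171, limma). When the block for the occasion was dropped, COL4A1 was not called.

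Among the other matrix ligands, SPP1 (osteopontin) and VTN (vitronectin), which alpha V integrins bind, had log2 fold changes of 0.39 and -0.35 (adjusted p = 0.192 and 0.26, limma). Differences on occasions 1 and 2 were 0.64 and 0.14 for SPP1, and -0.28 and -0.42 for VTN. Only 2 further integrins were detected, ITGAE at 0.27 and ITGB2 at 0.14, and neither passed. None of 33 other adhesion adaptors passed, those of smallest p being PDLIM7, FHL2 and YES1 at 0.42, 0.36 and 0.36. None of 32 other actin and myosin genes passed either, but MYL12A, a regulatory light chain of non-muscle myosin, had signals of 11056.7 and 10704.8 on the A549/146b arrays, against 6875.5 and 8649.3 on the A549/vec arrays. Its arrays did not overlap, with a log2 fold change of 0.50 and an adjusted p of 0.0531 in limma. The difference was 0.69 on occasion 1 and 0.31 on occasion 2, the first A549/vec array being the lowest. Of 21 genes for branched and formin-built actin none passed, with BAIAP2, a membrane-bending scaffold of actin assembly, at -0.45 (adjusted p = 0.0934, limma). The difference of BAIAP2 was -0.71 on occasion 1 and -0.2 on occasion 2. The list for the transcription regulators SRF and MRTF held responsive genes and the regulators themselves. Its tested genes numbered 16 with a median of 0.08. Their median was -0.06 on occasion 1 and 0.11 on occasion 2. The list for YAP and TAZ, which likewise included the regulators, had 13 tested genes. Their median was 0.06 (0.05 and 0.08 on the 2 occasions), and none of either list passed. At an unadjusted p under 0.05 in limma were 3 of the 16 (18.8%) and 5 of the 13 (38.5%), against 12.4% of all tested genes.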

How the data were processed

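A549/146b and A549/vec total RNA was hybridized to Illumina HumanRef-8 bead arrays, 2 arrays for each cell-line. The authors deposited signal intensities from GenomeStudio, detection p-values, which set each signal against negative control beads, and normalized intensities made in lumi 1.14 (variance-stabilizing transformation and robust spline) under R 2.11.1. The normalized intensities are linear (array medians 82.56 to 82.83) and were converted to log2. Replicate numbers mark occasions on which, per the study's methods, both cell-lines were grown together. The numbers are in the labels, and the deviations of same-numbered arrays correlated at -0.046, which gave no sign of pairing or of crossed pairs.

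Probes detected (p under 0.01) on 1 or more arrays, 10559 in all, were fitted together in limma 3.58.1 (R 4.3.3), blocking on occasion, with Benjamini-Hochberg adjustment over all of them, calls being made at 0.05. Each probe has 1 residual degree of freedom against 1025 from the prior (prior SD 0.143), so standard errors (0.143 to 0.147) hardly reflect a gene's own spread. The fit was also run on simulated data in which every probe had the prior SD. That setting cannot show how the fit handles a gene's own spread. The number of arrays limits the precision.

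Gene names came from the array annotation (21834 probes with 1 name, 2692 with none). Members and lists were chosen with earlier results of these data known. Values on every array are given for the 16 genes of smallest p, and for further genes so that each role had 2, and of each other list for the calls and some of smallest p. Alternatives were no block, neqc, quantile normalization, median scaling (floor 16), stricter and no detection filters, a variance trend, the mean of a gene's probes, and leaving out each array without the block. A permutation test of 2 arrays against 2 cannot pass 0.05 and was not used. Some of the genes are in the counts over all 35 tested genes but are not reported here one by one.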

Additional observations from a re-analysis of the deposited data

How the results depend on the processing

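No adhesion gene was called by limma under any setting that kept all 4 arrays and 1 probe for each gene. With the mean of a gene's tested probes and adjustment over 8290 genes, 1 was called, ITGAV (adjusted p = 0.0448), whose adjusted p was 0.0531 to 0.619 under the others and whose log2 fold change was 0.50 to 0.54. Without the replicate block, which the pairing by occasion supplies, 12 transcripts were called in place of 98, with 16.7 prior degrees of freedom, and 0 other pathway genes in place of 2; the adjusted p of ITGAV was then 0.277, and the block changed the call of no adhesion gene. Transcripts called numbered 21 with neqc, 40 with median scaling, 33 with only probes detected on all arrays and 0 with no detection filter, and other pathway genes called numbered 0, 1, 1 and 0 under these. With no detection filter 7 of the 39 adhesion genes with a probe had an unadjusted p under 0.05. The share of all genes at that setting is not given here. With median scaling the median log2 fold change of the adhesion genes was 0.06, and the median difference was -0.03 on occasion 1 and 0.12 on occasion 2. With the authors' normalized signals and 1 probe for each gene the median difference was 0.01 on occasion 1 and 0.05 on occasion 2. Over probe means the median difference was -0.03 on occasion 1. Probe means also turned the direction of CTTN (-0.05), ITGB1 (-0.04) and TPM1 (0.02). The causes were not tested, other than that these genes' probes differ in sign.

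Leaving out 1 array at a time, 12 to 868 transcripts, 0 to 4 adhesion genes and 0 to 16 other pathway genes were called, 2 to 6 adhesion genes had an unadjusted p under 0.05, and their median log2 fold change was 0.03 to 0.09. For these fits the share of all tested genes at an unadjusted p under 0.05 is not given here. The highest counts were those without A549/vec replicate 2. Without it ITGAV (0.83), VCL (0.51, adjusted p = 0.0214), SRC (-0.55, adjusted p = 0.0114) and ITGA2 were called. Without A549/vec replicate 1 the log2 fold change was 0.17 for ITGAV, 0.22 for VCL and -0.18 for SRC. Without A549/146b replicate 1 it was 0.44 for ITGAV, 0.23 for VCL and -0.4 for SRC. The direction turned for TLN1 (-0.04 to 0.41), ACTN4 (-0.41 to 0.10), ITGB4 (-0.36 to 0.25), EZR (-0.22 to 0.06) and TPM4 (-0.24 to 0.15). Of 174 values of named genes under settings with all arrays, 170 kept their direction and side of the threshold, as did 78 of 88 with an array left out. Among the settings with all arrays, dropping the block, the variance trend and the other detection filters reuse the same log2 values. In these the direction of a gene could not change, only its side of the threshold. With a cell-line reduced to 1 array, that array was assumed to vary like the others. Signals near background limit ITGA6, ENAH and PXN.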
